A study of Mus musculus with 21 samples.

Results

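The nuclear genes of respiratory complexes II to V are 32 genes picked by symbol from the 53801 gene identifiers counted in each library. They are 4 subunit genes of complex II, 9 of complex III, the cytochrome c gene Cycs, 13 of complex IV and 5 of complex V. All 32 were found, 5 of them under an older symbol, and all passed the filter on low counts in both experiments, so that none is left out below. They lie on 16 chromosomes.

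These genes encode the later part of oxidative phosphorylation, the main source of ATP in heart muscle. Complex II (succinate dehydrogenase) oxidises succinate to fumarate and passes the electrons to ubiquinone. Complex III (the cytochrome bc1 complex) hands electrons on to cytochrome c, and complex IV (cytochrome c oxidase) passes them to oxygen. Complexes III and IV pump protons out of the matrix, and complex V (ATP synthase) uses the gradient to make ATP. The catalytic core of complex IV and parts of complexes III and V come from the mitochondrial genome, and most other subunits are nuclear. A few complex IV subunits have a form typical of heart and skeletal muscle and a form made in most tissues. Here these pairs are Cox6a2 and Cox6a1, Cox7a1 and Cox7a2, and Cox8b and Cox8a, with the muscle form named first.

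The series holds 15 RNA-seq libraries of mouse heart tissue labelled border zone (the rim of an infarct), called hearts below, and 6 of cultured mouse cardiac fibroblasts. All hearts were taken at day 7. They were 4 from wild-type mice with myocardial infarction (MI) labelled MI+FAPI, 4 with MI and the genotype FapKO, 4 wild-type with MI and 3 wild-type after a sham operation. Fap encodes fibroblast activation protein, a surface protease of activated fibroblasts, and FAPI is read as its inhibitor from the series title. The study asked whether Fap takes part in heart repair after infarction. The labels do not name the compound, its dose, the knockout allele, the strain, or the age and sex of the mice, nor where border zone tissue was cut in a sham heart. The fibroblasts came from heart ventricles and were kept for 7 days in 5% GelMA, a gelatin hydrogel. Of these libraries 3 came from fibroblasts grown with endothelial cells of heart and lung (at 2:1) and sorted as Pdgfra-positive, CD45-negative and CD31-negative cells, and 3 from fibroblasts grown alone and not sorted. Partner cells and sort therefore cannot be told apart. The fibroblast replicates are called biological in the series text, and no label says that the hearts of a group came from separate mice, so that p-values measure the spread between these libraries.

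Totals were 24519009 to 37287355 counts in MI+FAPI and FapKO hearts, 18474138 to 25943873 in MI and sham hearts, 4735337 to 6346015 in co-cultured and 12871240 to 15650221 in lone fibroblasts. Fap had 224 to 349 counts in MI+FAPI hearts, 46 to 68 in FapKO hearts, 285 to 513 in MI hearts and 44 to 56 in sham hearts, and 14 to 16 in co-cultured against 19 to 32 in lone fibroblasts. FapKO hearts thus lay below the MI+FAPI and MI hearts without overlap. All 20 cardiomyocyte markers were detected in every heart and all 12 fibroblast markers in every culture library. MI replicate 3 stood apart from the other MI hearts: its 32 genes took 3.88% of all counts, against 2.44% to 2.69%, and its cardiomyocyte markers summed to 40520 CPM (counts scaled to a fixed library total), against 13419 to 20262 CPM. Among lone fibroblasts, replicate 2 stood apart, with 1.22% of counts on the 32 genes, against 1.75% and 1.79%.

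Because the paired complex IV subunits behaved differently from each other in these hearts, the 250 bases before the start of 5 of these genes are shown first, 5′ to 3′, from RefSeq on GRCm38.p6, with CG dinucleotides in capitals. The Cox6a2 promoter was not used here.
Cox7a1, chr7:30183921-30184170, plus strand: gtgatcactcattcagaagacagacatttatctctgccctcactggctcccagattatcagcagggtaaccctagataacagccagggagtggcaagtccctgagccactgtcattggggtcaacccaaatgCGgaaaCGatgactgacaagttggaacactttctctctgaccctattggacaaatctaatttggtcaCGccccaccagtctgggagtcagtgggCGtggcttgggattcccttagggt
Cox7a2, chr9:79759854-79760103, minus strand: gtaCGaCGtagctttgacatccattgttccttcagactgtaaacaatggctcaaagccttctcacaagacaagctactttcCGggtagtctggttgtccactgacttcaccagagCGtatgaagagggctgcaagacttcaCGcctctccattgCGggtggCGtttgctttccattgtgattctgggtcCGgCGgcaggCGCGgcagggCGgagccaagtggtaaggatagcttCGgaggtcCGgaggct
Cox8b, chr7:140900447-140900696, minus strand: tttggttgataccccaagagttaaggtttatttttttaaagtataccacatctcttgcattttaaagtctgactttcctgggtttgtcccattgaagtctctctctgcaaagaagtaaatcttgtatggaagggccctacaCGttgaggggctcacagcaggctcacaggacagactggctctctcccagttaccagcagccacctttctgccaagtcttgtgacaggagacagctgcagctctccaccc
Cox8a, chr19:7217617-7217866, minus strand: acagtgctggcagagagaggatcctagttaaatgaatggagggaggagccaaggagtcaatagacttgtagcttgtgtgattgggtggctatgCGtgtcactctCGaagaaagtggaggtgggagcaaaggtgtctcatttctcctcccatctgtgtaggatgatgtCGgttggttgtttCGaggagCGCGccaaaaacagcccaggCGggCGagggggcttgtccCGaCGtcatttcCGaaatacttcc
Cox6a1, chr5:115348959-115349208, minus strand: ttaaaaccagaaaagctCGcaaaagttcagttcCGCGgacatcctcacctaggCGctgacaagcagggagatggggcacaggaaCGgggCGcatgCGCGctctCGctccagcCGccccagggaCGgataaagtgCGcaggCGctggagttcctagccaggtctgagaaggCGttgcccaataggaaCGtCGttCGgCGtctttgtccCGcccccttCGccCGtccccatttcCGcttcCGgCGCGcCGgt

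The muscle forms Cox8b and Cox7a1 had the fewest CG dinucleotides of the 23 member promoters in the RefSeq table. The third muscle form, Cox6a2, was not among these 23. Cox8b had 1 and Cox7a1 had 4, against 11 for Cox8a, 14 for Cox7a2 and 26 for Cox6a1. The other 21 member promoters had 5 to 27, and the median over all 27025 promoters of the table was 6. Of all promoters, 19.4% had as few as Cox8b or fewer and 44.5% as few as Cox7a1 or fewer, so that these counts are low among the members and not among promoters in general. The motif of nuclear respiratory factor 1, a regulator of respiratory genes, was searched on both strands as GCGCA, any base, GCGC and was found in 3 of 23 members (Sdha, Sdhd and Cox6a1) and in 3.86% of all promoters. In Cox6a1 it lay at bases 162 to 153 and 117 to 108 before the start. The ETS motif CCGGAAG was in 5 of 23 members and 7.05% of all promoters, and CCAAT was in 12 of 23 and 34.5%. The estrogen-related receptor motif AAGGTCA was in no member window and in 4.05% of all promoters, and the MEF2 motif was in no member window and in 1.73%, which says only that these letters are not in these windows. In the 5 windows shown, matches of different motifs did not overlap. A match is a description, not a site.

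In sham hearts all 3 muscle forms were the most abundant of the 32 genes for their length. Per kilobase of annotated exon, Cox7a1 stood at 24760 ± 4670 CPM, Cox8b at 24440 ± 4050 CPM and Cox6a2 at 20440 ± 2950 CPM (SD, n = 3). These 3 neighbours in the order differed by less than the SD of Cox7a1. Next came Uqcr11, a small subunit of complex III, at 15800 ± 3130 CPM per kilobase. The general forms Cox8a and Cox6a1 stood far lower, at 1820 ± 198 and 1214 ± 151 CPM per kilobase. At the low end were Sdhc, the membrane anchor of complex II, at 285 ± 20.4, Sdha, its flavoprotein, at 222 ± 18.2, and Uqcrc2, a core protein of complex III, at 210.5 ± 44.7 CPM per kilobase. The lengths join all annotated exons of a gene, so that genes with long rarely used exons read low on this scale. In MI hearts the same 3 muscle forms stood at 1340 ± 471 (Cox7a1), 1750 ± 739 (Cox8b) and 1718 ± 850 (Cox6a2) CPM per kilobase (SD, n = 4), below 3 small subunits, Cox6b1 at 2294 ± 659, Uqcr11 at 2036 ± 511 and Uqcr10 at 2004 ± 623 CPM per kilobase, with SDs that overlap.

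In infarcted hearts of wild-type mice all 32 genes fell, although Cox6a1 was higher when libraries were scaled by total counts alone. Their median log2 fold change in MI against sham hearts was -2.88, where the median of all 17064 genes tested was 0.14. With total-count scaling it was -1.82, where that of all genes was 1.23. The changes ran from -4.21 for Cox7a1, which was 18.5-fold lower, to -0.57 for Cox6a1, which was 1.48-fold lower. Of all genes tested, 32% were called lower in this comparison (edgeR's quasi-likelihood test, Benjamini-Hochberg adjusted p under 0.05), and the 32 genes had adjusted p from 6.94e-09 to 0.000656. In all 32 the MI hearts lay below the sham hearts without overlap, as 31.1% of all genes did. The genes together took 4.90% to 6.80% of all counts in MI+FAPI hearts, 6.72% to 7.98% in FapKO hearts, 2.44% to 3.88% in MI hearts and 9.60% to 11.5% in sham hearts.

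The values below are CPM scaled by TMM, edgeR's correction for libraries in which a few abundant genes take many reads, in replicate order. For complex II, Sdha carries the flavin that oxidises succinate and Sdhb the iron-sulfur clusters that lead the electrons on. Sdha stood at 228, 276, 213 and 369 CPM in MI+FAPI hearts, 377, 365, 429.7 and 348 CPM in FapKO hearts, 97.4, 93.5, 167 and 115 CPM in MI hearts and 973, 949 and 833 CPM in sham hearts. Sdhb stood at 1204, 1736, 1151 and 2178 CPM in MI+FAPI hearts, 2411, 2018, 2785 and 1972 CPM in FapKO hearts, 515, 365, 791 and 483 CPM in MI hearts and 5661, 5088 and 4019 CPM in sham hearts. For both genes no MI heart reached any other heart, no infarcted heart reached a sham heart, and the MI+FAPI and FapKO hearts overlapped. Sdha was 7.76-fold lower in MI than in sham hearts (-2.96 ± 0.21 on the log2 scale, with its SE, adjusted p = 6.94e-09 by edgeR), and Sdhb 9.14-fold lower (-3.19 ± 0.27, adjusted p = 3.63e-08). The 4 genes of the complex changed by -3.19 to -2.66.

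Complex III passes electrons through the Rieske iron-sulfur protein Uqcrfs1 to cytochrome c1, the product of Cyc1, and from there to the mobile carrier cytochrome c, the product of Cycs. Uqcrfs1 stood at 819.6, 1108, 797 and 1433 CPM in MI+FAPI hearts, 1566, 1432, 1890.4 and 1436 CPM in FapKO hearts, 233, 198, 485 and 271 CPM in MI hearts and 3529, 3265 and 2583 CPM in sham hearts. Cyc1 stood at 639, 939, 632 and 1166 CPM in MI+FAPI hearts, 1265, 1142, 1449 and 1163 CPM in FapKO hearts, 223, 183, 437 and 254 CPM in MI hearts and 2803, 2578 and 2220 CPM in sham hearts. Cycs stood at 1620.3, 2346, 1421 and 2675 CPM in MI+FAPI hearts, 3831, 2874, 3257 and 2222 CPM in FapKO hearts, 612, 489.8, 929 and 477 CPM in MI hearts and 7516, 7221 and 4503 CPM in sham hearts. In all 3 the MI hearts were lowest and the sham hearts highest, without overlap with another group, and MI+FAPI and FapKO hearts overlapped. The log2 fold changes in MI against sham hearts were -3.40 ± 0.28 for Uqcrfs1, -3.21 ± 0.27 for Cyc1 and -3.35 ± 0.29 for Cycs (SE; edgeR adjusted p = 3.14e-08, 3.77e-08 and 4.99e-08). The 9 genes of complex III had a median change of -2.96, with the least in Uqcr10, a small subunit, at -2.48.

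In complex IV, Cox4i1 and Cox5a are nuclear subunits that join the mitochondrially encoded core early in assembly, and Cox4i1 takes part in control by ATP. Cox4i1 stood at 2511, 3442, 2598 and 4233 CPM in MI+FAPI hearts, 4488, 4093, 5254 and 4300 CPM in FapKO hearts, 1179, 995, 2196 and 1408 CPM in MI hearts and 8964, 8241 and 7958 CPM in sham hearts. Cox5a stood at 480.2, 699, 338 and 611 CPM in MI+FAPI hearts, 1006, 921, 778 and 569.9 CPM in FapKO hearts, 180.0, 135, 214 and 113 CPM in MI hearts and 2356, 2066 and 1128 CPM in sham hearts. Cox4i1 kept the same order of groups as the complex III genes. For Cox5a the sham hearts also lay above all others, but sham replicate 3, at 1128 CPM, lay close to FapKO replicate 1, at 1006 CPM. Cox4i1 changed by -2.54 ± 0.25 and Cox5a by -3.53 ± 0.30 in MI against sham hearts (log2, SE; edgeR adjusted p = 1.75e-07 and 4.32e-08). Within complex IV the changes ran from -4.21 to -0.57, a wider range than in any other complex.

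Complex V makes ATP on the beta subunit, encoded by Atp5f1b, and Atp5po encodes the stalk protein that holds the catalytic head in place. Atp5f1b stood at 1960.2, 2624, 1806 and 2965 CPM in MI+FAPI hearts, 2815, 2806, 3169 and 2726 CPM in FapKO hearts, 778, 641, 1554 and 895 CPM in MI hearts and 6428, 6087 and 5298 CPM in sham hearts. Atp5po stood at 1578, 2278, 1789 and 3138 CPM in MI+FAPI hearts, 2950.5, 2651, 3614 and 2558 CPM in FapKO hearts, 744, 604, 1344 and 843 CPM in MI hearts and 7155, 6248 and 5684 CPM in sham hearts. The groups again stood in the order MI lowest, then the MI+FAPI and FapKO hearts with overlap, then sham. The log2 fold changes in MI against sham hearts were -2.62 ± 0.26 and -2.85 ± 0.27 (SE; edgeR adjusted p = 1.74e-07 and 1.24e-07), and the 5 genes of the complex lay between -2.98 and -2.42.

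**Figure D1:**
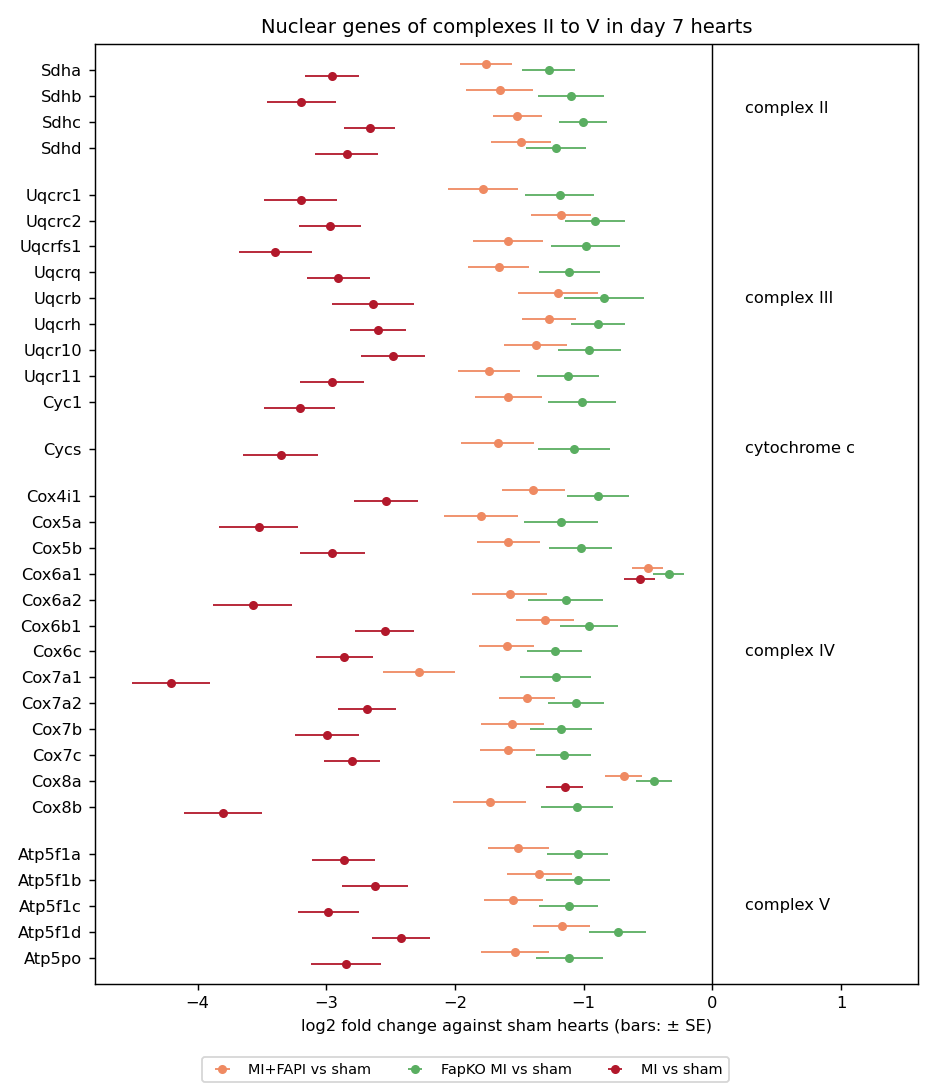
Log2 fold change against sham hearts (horizontal axis) of each of the 32 genes, by complex, for MI+FAPI, FapKO and MI hearts; points are edgeR estimates and bars are ± SE. Every point lies left of 0 (with total-count scaling Cox6a1 would lie right of it in all 3 comparisons, and Cox8a for FapKO hearts), the MI points lie farthest left, and Cox6a1 and Cox8a stand apart on the right of their complex.

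The muscle and general forms of complex IV subunits parted most. Cox6a sits at the contact within the complex IV dimer and takes part in its regulation by adenine nucleotides. Cox6a2 stood at 3846, 5462, 3338 and 6006 CPM in MI+FAPI hearts, 6738, 5970.3, 7015 and 5487 CPM in FapKO hearts, 860.4, 856, 2034 and 923 CPM in MI hearts and 15032, 15085 and 11589 CPM in sham hearts. Cox6a1 stood at 551, 634, 575 and 643 CPM in MI+FAPI hearts, 659.8, 649, 680.0 and 703 CPM in FapKO hearts, 651, 506, 591 and 556 CPM in MI hearts and 974, 805 and 778 CPM in sham hearts. The Cox6a2 values of the 4 groups did not overlap except between MI+FAPI and FapKO hearts, whereas for Cox6a1 the MI hearts overlapped with both the MI+FAPI and the FapKO hearts. Cox6a2 was 11.9-fold lower in MI than in sham hearts (-3.57 ± 0.31, adjusted p = 4.18e-08) and Cox6a1 1.48-fold lower (-0.57 ± 0.12, log2, SE, edgeR's adjusted p = 0.000656). With libraries scaled by total counts alone, Cox6a1 turned round, to 0.52 (adjusted p = 0.00021).

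Cox7a is a small subunit of complex IV that spans the inner membrane. Cox7a1 stood at 2430.5, 3362, 1699 and 3419 CPM in MI+FAPI hearts, 6638, 4886, 6720.5 and 4537 CPM in FapKO hearts, 609, 555, 1092 and 612 CPM in MI hearts and 14516, 14862 and 10369 CPM in sham hearts. Cox7a2 stood at 1139, 1500.3, 1290.1 and 1925 CPM in MI+FAPI hearts, 2045, 1724, 2120 and 1727 CPM in FapKO hearts, 571, 451, 893 and 553 CPM in MI hearts and 4337, 3993 and 3569 CPM in sham hearts. Of the 6 isoform genes only Cox7a1 had no overlap between any of the 4 groups. In Cox7a2 the MI+FAPI and FapKO hearts overlapped. Cox7a1 was 18.5-fold lower in MI than in sham hearts (-4.21 ± 0.30, log2, SE, edgeR adjusted p = 7.61e-09), and Cox7a2 6.43-fold lower (-2.68 ± 0.22, adjusted p = 3e-08).

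Cox8 is among the smallest subunits of complex IV. Cox8b stood at 2083, 3132, 1841 and 3542 CPM in MI+FAPI hearts, 4654, 3973, 4908 and 3423 CPM in FapKO hearts, 501, 489, 1029 and 501 CPM in MI hearts and 9958, 9271 and 7161 CPM in sham hearts. Cox8a stood at 613, 711, 657 and 816 CPM in MI+FAPI hearts, 796, 765, 878 and 849.9 CPM in FapKO hearts, 509, 415, 608 and 501 CPM in MI hearts and 1247, 1131 and 1002 CPM in sham hearts. In both genes the MI hearts were lowest and the sham hearts highest without overlap, and the MI+FAPI and FapKO hearts overlapped. Cox8b in MI hearts was 14-fold lower than in sham hearts (-3.80 ± 0.30, log2, SE, edgeR adjusted p = 1.87e-08), and Cox8a 2.22-fold lower (-1.15 ± 0.14, adjusted p = 2.53e-06).

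**Figure D2:**
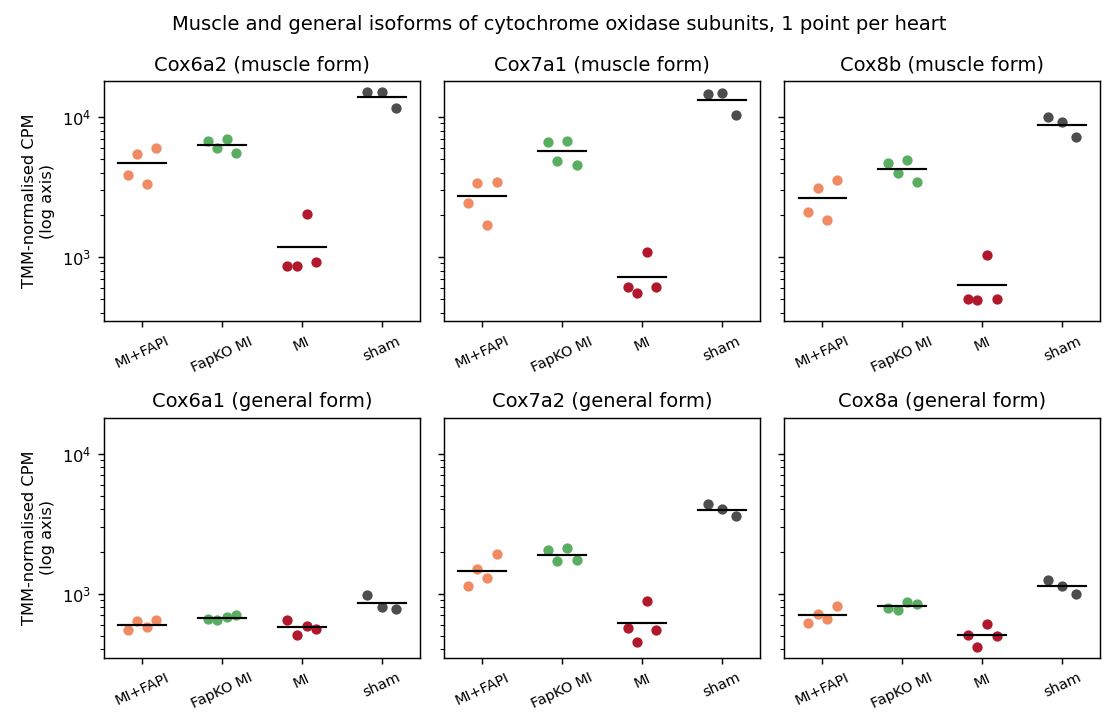
TMM-normalised CPM (vertical log axis) of the 3 muscle forms (top) and 3 general forms (bottom) in MI+FAPI, FapKO, MI and sham hearts, 1 point per heart, with lines at the group means. The muscle forms span more than the general forms, and MI replicate 3 lies above the other MI hearts in Cox6a2, Cox7a1 and Cox8b.

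A ratio of 2 genes within a library does not depend on how libraries are scaled, so the muscle form was set over the general form in each heart (log2 of counts plus 0.5). For Cox6a2 over Cox6a1 the ratios were 2.80, 3.11, 2.54 and 3.22 in MI+FAPI hearts, 3.35, 3.20, 3.37 and 2.96 in FapKO hearts, 0.40, 0.76, 1.78 and 0.73 in MI hearts and 3.95, 4.23 and 3.90 in sham hearts. For Cox7a1 over Cox7a2 they were 1.09, 1.16, 0.40 and 0.83 in MI+FAPI hearts, 1.70, 1.50, 1.66 and 1.39 in FapKO hearts, 0.09, 0.30, 0.29 and 0.15 in MI hearts and 1.74, 1.90 and 1.54 in sham hearts. For Cox8b over Cox8a they were 1.76, 2.14, 1.49 and 2.12 in MI+FAPI hearts, 2.55, 2.38, 2.48 and 2.01 in FapKO hearts, -0.02, 0.24, 0.76 and 0.00 in MI hearts and 3.00, 3.03 and 2.84 in sham hearts. In all 3 pairs every MI heart had a lower ratio than every other heart, and every MI+FAPI heart had a lower ratio than every sham heart. FapKO and sham hearts overlapped for Cox7a1 over Cox7a2 and for no other pair, and MI+FAPI and FapKO hearts overlapped for the other 2 pairs.

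The mean ratio in MI minus sham hearts was -3.11 for Cox6a2 over Cox6a1, -1.52 for Cox7a1 over Cox7a2 and -2.71 for Cox8b over Cox8a, each with the smallest p an exact two-sided permutation test of 4 against 3 libraries can give, 0.0571. In MI+FAPI minus MI hearts it was 2.00, 0.66 and 1.63, and in FapKO minus MI hearts 2.30, 1.36 and 2.11, each with exact p = 0.0286, the smallest for 4 against 4. In MI+FAPI minus FapKO hearts it was -0.30 for Cox6a2 over Cox6a1 (exact permutation p = 0.171), -0.69 for Cox7a1 over Cox7a2 (p = 0.0286) and -0.48 for Cox8b over Cox8a (p = 0.0857). Adjusted over the 21 tests of 3 pairs and 7 comparisons, no p was below 0.08, so that none passed 0.05. None could have: with so few libraries, the smallest possible p in all 21 tests would still leave every adjusted p above 0.05. Counted per kilobase, the muscle form made up 88.5% ± 2.21 of Cox6a in MI+FAPI hearts, 90.5% ± 1.14 in FapKO hearts, 65.6% ± 8.70 in MI hearts (SD, n = 4 each) and 94.4% ± 0.636 in sham hearts (SD, n = 3).

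**Figure D3:**
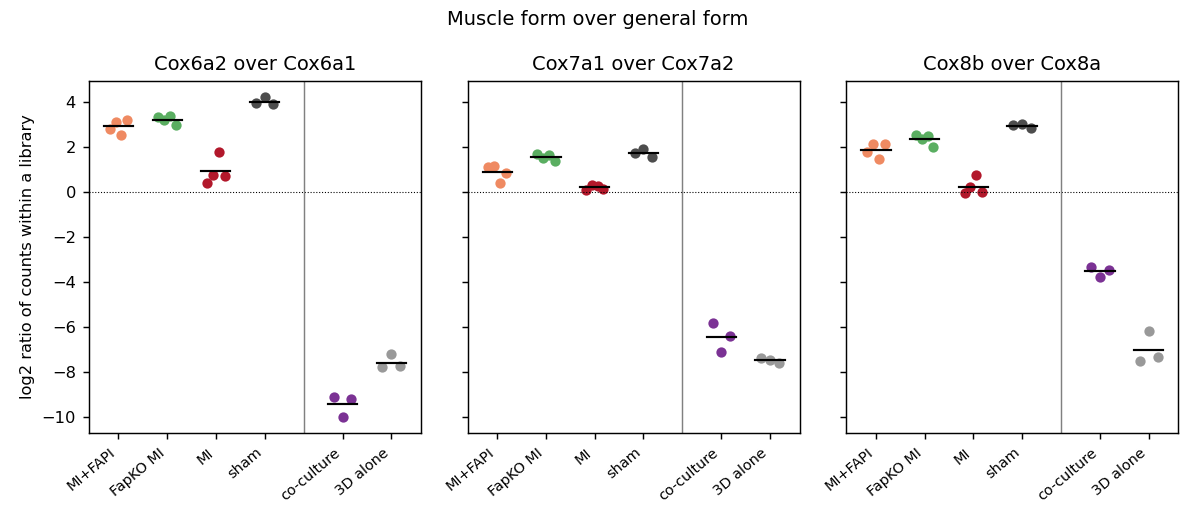
Log2 ratio of muscle form over general form counts (vertical axis) in each heart and, right of the grey line, in each fibroblast library, with lines at the group means. The ratio is lowest in MI hearts and highest in sham hearts for all 3 pairs, and far below 0 in fibroblasts, whose libraries were made and counted separately.

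In MI+FAPI against MI hearts, 31 of the 32 genes rose and 1, Cox6a1, did not pass the test. The median log2 fold change was 1.34, against -0.03 over all genes, of which 17.9% were called higher. The muscle forms rose most: Cox8b was 4.21-fold higher (2.07 ± 0.27, log2, SE, edgeR adjusted p = 0.000126), Cox6a2 3.99-fold (2.00 ± 0.28) and Cox7a1 3.81-fold (1.93 ± 0.27). Cox6a1 changed by 0.06 ± 0.11 (adjusted p = 0.724), and its values in the groups overlapped. Among core subunits, Uqcrfs1 rose by 1.81, Cox5a by 1.73, Cycs by 1.69 and Sdha by 1.20 on the log2 scale. The general form Cox8a rose by 0.46 (adjusted p = 0.0166). The groups did not overlap in 31 of the 32 genes, as in 15.6% of all genes in the higher direction.

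In FapKO against MI hearts the same 31 genes rose and Cox6a1 again did not pass, at 0.22 ± 0.11 (edgeR adjusted p = 0.113). The median log2 fold change was 1.79, against -0.08 over all genes, of which 25% were called higher. Cox7a1 was 7.95-fold higher (2.99 ± 0.28, log2, SE, adjusted p = 6.8e-07), Cox8b 6.73-fold (2.75 ± 0.28) and Cox6a2 5.39-fold (2.43 ± 0.28). The groups did not overlap in 31 genes, as in 22.6% of all genes in the higher direction. Uqcrfs1 rose by 2.41, Cox5a by 2.35, Cycs by 2.28 and Sdhb by 2.09. This comparison and the one of MI+FAPI with MI hearts share their MI hearts, so the genes in common are not a second, separate result. With total-count scaling Cox6a1 was called lower in both, at -0.36 in MI+FAPI and -0.32 in FapKO hearts (adjusted p = 0.00624 and 0.00742).

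Neither group of infarcted hearts reached the sham level. All 32 genes were lower in MI+FAPI than in sham hearts, with a median of -1.55 and 0.09 over all genes (26.5% of all genes called lower), from -2.28 for Cox7a1 to -0.50 for Cox6a1. All 32 were also lower in FapKO than in sham hearts, with a median of -1.06 and 0.05 over all genes (20.3% called lower). In neither comparison did any of the 32 genes overlap, as was so in the lower direction for 27.5% of all genes in MI+FAPI and 23.7% in FapKO hearts. Among FapKO hearts the largest change was in Sdha, at -1.27 ± 0.20 (SE, edgeR adjusted p = 0.000215), and the smallest in Cox6a1, at -0.34 ± 0.12 (adjusted p = 0.0367). Cox7a1 changed by -2.28 in MI+FAPI and -1.22 in FapKO hearts, both against sham. With total-count scaling 29 genes were lower in MI+FAPI hearts (median -0.90) and 25 in FapKO hearts (median -0.52). Of all 17064 genes, 1632 were then called lower in MI+FAPI and 825 in FapKO hearts. Cox6a1 turned to 0.17 in MI+FAPI and 0.20 in FapKO hearts with this scaling.

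Set against each other, MI+FAPI and FapKO hearts had 1 gene that passed the test. Cox7a1 averaged 2728 ± 822 CPM in MI+FAPI hearts and 5695 ± 1150 CPM in FapKO hearts (SD, n = 4 each), 2.09-fold lower in MI+FAPI hearts (-1.06 ± 0.26, log2, SE, edgeR adjusted p = 0.014). The other 31 did not pass, although all 32 estimates were below 0, with a median of -0.44 and 0.02 over all genes (6.12% called lower). Cox8b was next in size, at -0.68 ± 0.26 (adjusted p = 0.0963), and the smallest estimate was that of Cox6a1, at -0.16 ± 0.11. MI+FAPI replicate 4 was the highest of its group in 31 of the 32 genes. Without it 12 genes were called lower, as were 1370 of all 17018 genes then tested. Cox7a1, Cox6a1 and Sdhc were the 3 genes in which the groups did not overlap, as 8.88% of all genes did in the lower direction. Cell markers differed between the same hearts: in MI+FAPI against FapKO hearts 6 of 10 adipocyte markers were lower (median -1.59), 7 of 14 macrophage markers higher (median 0.60) and 3 of 20 cardiomyocyte markers lower (median -0.28). Their part in the Cox7a1 difference was not tested.

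These libraries hold all cells of the tissue, in which fewer cells of a type and less RNA per cell cannot be told apart. The cardiomyocyte markers moved with the 32 genes. Their mean log2 CPM was 9.87 ± 0.402 in MI+FAPI hearts, 10.26 ± 0.131 in FapKO hearts, 8.20 ± 0.645 in MI hearts (SD, n = 4 each) and 10.86 ± 0.0486 in sham hearts (SD, n = 3), and they summed to 43960 to 79720 CPM in MI+FAPI hearts, 64860 to 77270 CPM in FapKO hearts, 13420 to 40520 CPM in MI hearts and 107400 to 123400 CPM in sham hearts. All 20 markers were lower in MI than in sham hearts, with a median of -2.44, and all 20 were higher in MI+FAPI than in MI hearts (median 1.60) and in FapKO than in MI hearts (median 1.95). Against sham hearts, 10 of 20 markers were lower in MI+FAPI hearts (median -0.75) and 7 of 20 in FapKO hearts (median -0.61), where all 32 respiratory genes were lower. Markers of other cells moved in their own ways. In MI against sham hearts all 12 fibroblast markers, 13 of 14 macrophage markers and all 8 neutrophil markers tested were higher, and the same 8 neutrophil markers were lower in MI+FAPI and in FapKO than in MI hearts. Of the 12 fibroblast markers 4 were lower in MI+FAPI and 8 in FapKO than in MI hearts, and of the 14 macrophage markers 8 and 13. Of 10 adipocyte markers 6 were higher and 3 lower in MI than in sham hearts (median 2.91), 1 was higher and 7 lower in MI+FAPI than in MI hearts (median -3.17), and 3 were higher and 4 lower in FapKO than in MI hearts (median -1.18). Endothelial markers (2 higher and 4 lower of 12 in MI against sham hearts) and smooth muscle markers (5 higher and 3 lower of 8) went both ways. The part of these cells in the respiratory genes was not tested. The macrophage markers summed to 5268 to 9247 CPM in MI+FAPI hearts, 3200 to 6022 CPM in FapKO hearts, 8010 to 11240 CPM in MI hearts and 2258 to 2487 CPM in sham hearts.

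The mean level of the 32 genes was therefore also taken relative to that of the markers in each heart. The difference of the 2 mean log2 levels was 0.489 ± 0.0496 in MI+FAPI hearts, 0.594 ± 0.0519 in FapKO hearts, 0.774 ± 0.26 in MI hearts (SD, n = 4 each) and 1.01 ± 0.162 in sham hearts (SD, n = 3). The MI+FAPI hearts (0.435 to 0.538) and the FapKO hearts (0.533 to 0.660) both lay below the sham hearts (0.831 to 1.15), and the MI hearts (0.447 to 1.07) overlapped with all 3 groups. For complex II the relative level was -1.01 ± 0.103 in MI+FAPI hearts, -0.908 ± 0.0142 in FapKO hearts, -0.652 ± 0.275 in MI hearts and -0.365 ± 0.127 in sham hearts, and complexes III, IV and V had the same order of means. Cytochrome c had another: Cycs stood at 1.06 ± 0.076 in MI+FAPI hearts, 1.29 ± 0.281 in FapKO hearts, 1.04 ± 0.36 in MI hearts and 1.75 ± 0.363 in sham hearts, and the FapKO and sham hearts overlapped.

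**Figure D4:**
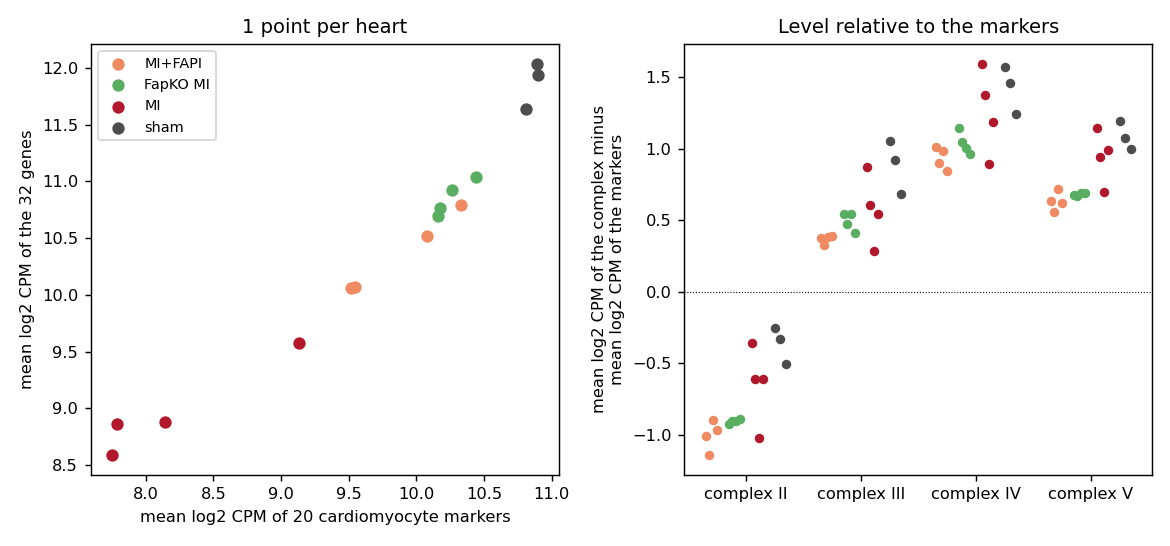
Left, mean log2 CPM of the 32 genes (vertical axis) against that of 20 cardiomyocyte markers (horizontal axis), 1 point per heart. Right, mean log2 CPM of each complex minus that of the markers, in MI+FAPI, FapKO, MI and sham hearts (left to right within a complex, colours as on the left); the MI+FAPI and FapKO points lie below the sham points in all 4 complexes.

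With the marker level as a covariate in the edgeR fit, 31 of the 32 genes were called lower in MI+FAPI than in sham hearts (median -0.81, 16.4% of all genes called lower) and 29 in FapKO than in sham hearts (median -0.59, 14.8%). In MI against sham hearts 11 were lower (median -1.01, 3.59%), among them Cox7a1 at -2.09 (adjusted p = 0.0104). In MI+FAPI and in FapKO against MI hearts none of the 32 was higher (medians 0.14 and 0.35), where 0.00586% and 0.182% of all genes were called higher. Cox7a1 remained lower in MI+FAPI than in FapKO hearts, at -0.77 (adjusted p = 0.00402, 4.54% called lower). The marker level of the MI hearts (7.75 to 9.13) did not overlap with that of the MI+FAPI hearts (9.52 to 10.33), the FapKO hearts (10.16 to 10.44) or the sham hearts (10.81 to 10.90), and the sham hearts overlapped with no other group. In every comparison with MI or with sham hearts, marker level and group therefore cannot be told apart.

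Heart and skeletal muscle share the muscle forms, and markers of skeletal muscle differed between libraries. The 9 skeletal muscle markers summed to 1870 to 4621 CPM in MI+FAPI hearts, 1920 to 4510 CPM in FapKO hearts, 307 to 1432 CPM in MI hearts and 458 to 727 CPM in sham hearts. Of the 8 tested, 6 were lower and 1, Acta1, higher in MI+FAPI than in MI hearts (median -3.20). In FapKO against MI hearts 1 was higher and none lower (median -1.47). Acta1, an actin that stressed heart muscle also makes, gave most of this in MI+FAPI and FapKO hearts (3738, 4595, 1852 and 3678 CPM in MI+FAPI hearts, 2961, 1891, 4481 and 3922 CPM in FapKO hearts). Mylpf, a light chain of fast skeletal muscle named after its values were seen, reached 293 CPM in MI replicate 2 and 112 CPM in FapKO replicate 1, and 2.74 to 20.5 CPM in the other hearts. MI replicate 2 had the lowest Cox6a2, Cox7a1 and Cox8b of the MI hearts, and also the lowest mean level of the 32 genes. Its isoform ratios were not the lowest. They were 0.76 for Cox6a2 over Cox6a1, 0.30 for Cox7a1 over Cox7a2 and 0.24 for Cox8b over Cox8a. The lowest of the MI hearts were 0.40, 0.09 and -0.02, all in MI replicate 1. The part of skeletal muscle RNA in the isoform ratios was not tested.

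The rest of the machinery moved with the 32 genes to different degrees. All 13 other ATP synthase subunits were lower in MI than in sham hearts (median -2.73, range -3.46 to -1.13). Atp5mk and Atp5f1e had the smallest p, at -3.03 ± 0.20 and -2.55 ± 0.19 (log2, SE, edgeR adjusted p = 4.57e-09 and 1.2e-08). All 13 were higher in MI+FAPI and in FapKO than in MI hearts (medians 1.26 and 1.78), among them Atp5mc1 at 1.89 and Atp5mk at 1.29 in MI+FAPI, and Atp5mk at 1.78 and Atp5me at 1.95 in FapKO hearts. In MI+FAPI against FapKO hearts Atp5f1e was lower (-0.57 ± 0.18, edgeR adjusted p = 0.0417). Of the assembly factors of complexes II to V, 30 of 31 tested were lower in MI hearts with a median of -1.40. They included Tmem70, which helps to build ATP synthase, at -2.20 ± 0.15 and Uqcc1, which acts in complex III assembly, at -2.73 ± 0.21, and Cox20 alone did not pass. Of them 22 rose in MI+FAPI and 26 in FapKO against MI hearts (medians 0.61 and 0.91). Of smallest p were Uqcc1 at 1.53 and Lyrm7, which acts in complex III assembly, at 1.47 in MI+FAPI hearts, and Lyrm7 at 2.03 and Tmem70 at 1.38 in FapKO hearts. In MI+FAPI against FapKO hearts 4 were lower, among them Lrpprc, which stabilises mitochondrial mRNAs, at -0.59 and Sdhaf1, a complex II assembly factor, at -0.60. Of the mitochondrially encoded subunits 3 of 6 passed the filter, and mt-Co1 and mt-Cytb changed by -2.66 and -2.51 in MI against sham hearts and by 1.71 and 1.35 in MI+FAPI and 1.72 and 1.69 in FapKO against MI hearts. Up to 2 of the 6 were at 0 in a sham heart, although mitochondrially encoded genes took 15.2% to 19.6% of counts there. The 3 tested therefore may not stand for all 6, and the cause of the low counts was not tested.

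Among 12 nuclear regulators of respiratory genes, 9 were lower and 1 higher in MI than in sham hearts (median -1.57). Esrrb, an estrogen-related receptor, averaged 2.25 ± 0.125 CPM in MI and 25.3 ± 2.36 CPM in sham hearts, and Ppargc1a, the coactivator PGC-1alpha, 9.37 ± 3.77 CPM in MI and 100 ± 13.6 CPM in sham hearts (SD, n = 4 and 3). Their log2 fold changes were -3.49 ± 0.22 and -3.42 ± 0.26 (SE, edgeR adjusted p = 2.92e-09 and 1.18e-08). The transcription factor Yy1 was higher, at 0.62 ± 0.12 (adjusted p = 0.000196), and Nrf1 and Mef2c did not pass. Of the regulators 7 rose in MI+FAPI against MI hearts and 7 in FapKO against MI hearts, where Nrf1 and Yy1 were lower, at -0.38 and -0.31. Esrrb changed by 1.76 ± 0.21 and 2.54 ± 0.21 in these comparisons. Perm1, a muscle regulator of respiratory genes, changed by 2.20 ± 0.29 in MI+FAPI and Ppargc1a by 2.30 ± 0.24 in FapKO against MI hearts. In MI+FAPI against FapKO hearts Esrrb (-0.77 ± 0.19, edgeR adjusted p = 0.0151) and Tfam, which packages and transcribes mitochondrial DNA, were lower (-0.33 ± 0.10, adjusted p = 0.0326).

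In cultured fibroblasts the 32 genes moved less and not as one. In co-cultured fibroblasts 18 rose, 2 fell and 12 did not pass against fibroblasts grown alone. The median change was 0.42 (log2), where that of all 12293 genes tested was -0.06. Of all genes 30.3% were called higher and 29.5% lower. The groups did not overlap in 25 of the 32 genes, against 67% of all genes. Complex IV held most of the risen genes, 10 of 13 (median 0.63), against 2 of 4 in complex II, 5 of 9 in complex III and 1 of 5 in complex V (Atp5f1d). With total-count scaling, which moved the median of all genes to -0.41, 5 of the 32 were higher and 3 lower (median 0.06). Of all 12293 genes 2506 were then called higher and 5162 lower, so that the balance of higher and lower genes depends on the scaling.

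The muscle form Cox8b changed most by far. It stood at 102, 80.3 and 87.7 CPM in co-cultured and 3.78, 6.29 and 4.4 CPM in lone fibroblasts, 18.8-fold higher in co-culture (4.23 ± 0.21, log2, SE, edgeR adjusted p = 1.35e-06). Cox7a1 stood at 11.4, 5.59 and 7.68 CPM in co-cultured and 3.54, 2.87 and 3.11 CPM in lone fibroblasts (1.36 ± 0.27, adjusted p = 0.00256). Cox6a2 went against them, with 2.18, 1.12 and 2.1 CPM in co-cultured and 4.19, 3.74 and 4.46 CPM in lone fibroblasts (-1.19 ± 0.30, adjusted p = 0.00737). The groups overlapped in none of these 3 genes, and Cox7a1 and Cox6a2 stayed at 11.4 CPM or less.

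Of the general forms, Cox8a stood at 1026, 1104 and 984 CPM in co-cultured and 694, 459 and 712 CPM in lone fibroblasts (0.74 ± 0.17, adjusted p = 0.0047), and Cox6a1 at 1271, 1260.4 and 1277 CPM in co-cultured and 941, 555 and 969.6 CPM in lone fibroblasts (0.63 ± 0.20, edgeR adjusted p = 0.021). Lone replicate 2 was the lowest library in both. Cox7a2 stood at 655, 792 and 649 CPM in co-cultured and 604, 513 and 605 CPM in lone fibroblasts and did not pass (0.28 ± 0.12, adjusted p = 0.0765). The log2 ratio of Cox8b over Cox8a was -3.32, -3.78 and -3.49 in co-cultured and -7.51, -6.18 and -7.33 in lone fibroblasts, without overlap, and exact p = 0.1 for each of the 3 pairs, the smallest that 3 against 3 libraries allow.

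Cycs, cytochrome c, fell: it stood at 301, 356 and 301 CPM in co-cultured and 461, 513 and 403 CPM in lone fibroblasts (-0.52 ± 0.13, log2, SE, edgeR adjusted p = 0.00664). Cox6c, a complex IV subunit named after its values were seen, stood at 1790.2, 2085 and 1873 CPM in co-cultured and 759, 587 and 755 CPM in lone fibroblasts (1.45 ± 0.14, adjusted p = 3.15e-05). Neither gene overlapped between the groups. 

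Among core subunits 4 rose in co-culture. Sdhb had 755, 709.6 and 629.6 CPM in co-cultured and 430.3, 438 and 398 CPM in lone fibroblasts, a log2 change of 0.72. Cyc1 had 335, 329 and 314 CPM in co-cultured and 249.8, 286 and 251 CPM in lone fibroblasts (0.31). The groups did not overlap in these genes, nor in the next 2. Cox4i1 had 1504, 1466 and 1502 CPM in co-cultured and 1018, 799 and 1101 CPM in lone fibroblasts (0.62), and Cox5a 214, 246 and 276 CPM in co-cultured and 139, 134 and 123 CPM in lone fibroblasts (0.89).

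The other 4 core subunits did not pass. Sdha had 84.8, 101 and 104 CPM in co-cultured and 113, 109.7 and 116 CPM in lone fibroblasts (-0.22), and Atp5po 835, 848 and 792 CPM in co-cultured and 729, 723 and 695 CPM in lone fibroblasts (0.20), both without overlap. Uqcrfs1 had 128, 127 and 140.2 CPM in co-cultured and 127, 97.8 and 132 CPM in lone fibroblasts (0.14), and Atp5f1b 544, 589 and 625 CPM in co-cultured and 760.5, 463 and 822 CPM in lone fibroblasts (-0.22), both with overlap and with lone replicate 2 the lowest library. The smallest change of the 32 was that of Sdhd, at -0.0047 ± 0.1008 (log2, SE). Without lone replicate 2, 4 genes were lower in co-culture (Sdha, Atp5f1b, Cycs and Cox6a2), as were 3897 of all 11871 genes then tested.

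**Figure D5:**
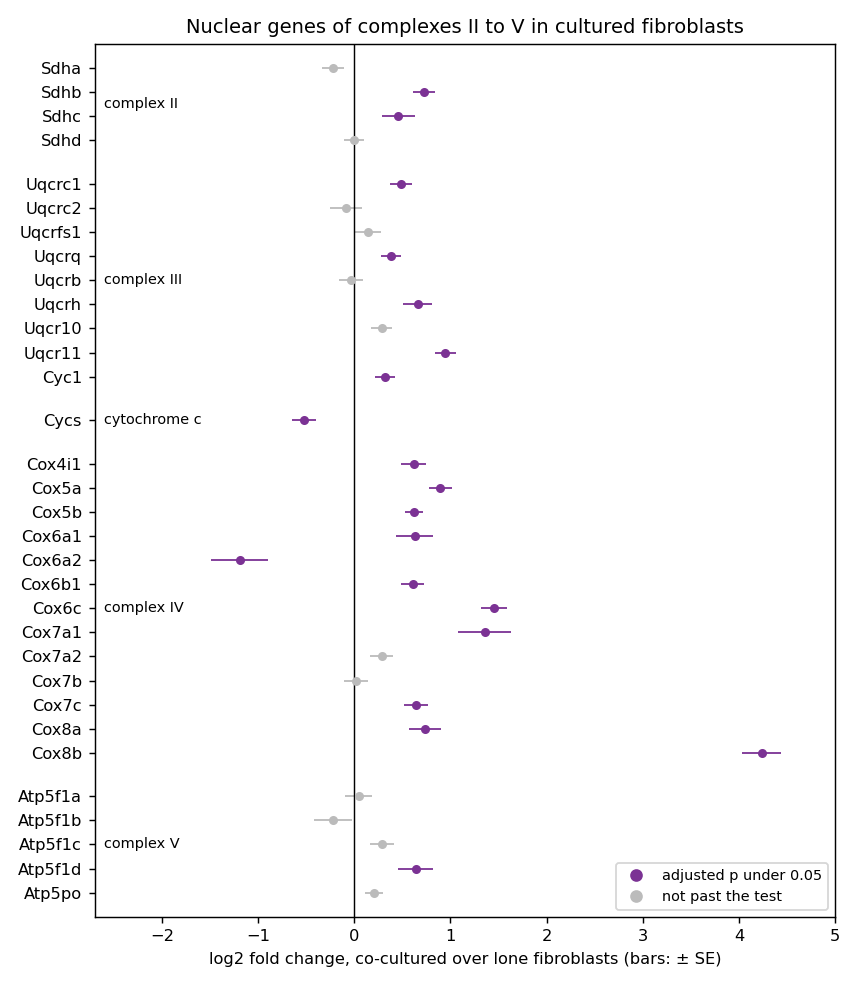
Log2 fold change in co-cultured over lone fibroblasts (horizontal axis) of each of the 32 genes by complex; points are edgeR estimates, bars ± SE, and purple points passed the test. Cox8b stands alone at 4.23, and Cox6a2 and Cycs are the purple points left of 0.

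Markers of other cells differed between these cultures. The 10 adipocyte markers summed to 625 to 756 CPM in co-cultured and 122 to 124 CPM in lone fibroblasts, with 6 of 7 tested higher; Cox8b is known from brown fat as well as from muscle. Of 6 brown adipocyte markers none passed the filter, their sum was 1.45 to 4.92 CPM in co-culture and 0.472 to 1.07 CPM alone, and the defining Ucp1 was at 0 in all 6 libraries. Cardiomyocyte markers summed to 308 to 331 CPM in co-culture and 323 to 370 CPM alone, with 10 or 11 of 20 at 0 in co-culture and 4 to 8 alone. Macrophage markers summed to 416 to 536 CPM in co-culture and 928 to 1478 CPM alone, with 2 of 13 tested higher and 11 lower. Endothelial markers summed to 338 to 385 CPM in co-culture and 179 to 198 CPM alone, but only 2 of 6 tested were higher (median -0.04), and their mean log2 level was 1.29 in co-culture and 1.27 alone. Smooth muscle markers summed to 484 to 583 CPM in co-culture and 1462 to 2515 CPM alone, with 1 of 4 tested higher and 3 lower. The part of these cells in the respiratory genes was not tested.

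Near-identical copies in the genome could share reads with 8 of the 32 genes. Counts listed under such copies came to at most 3.22% of the counts of gene and copies together in any heart (Cox4i1). How reads with several matches were treated is not known, so these shares do not measure the reads that gene and copy share. The shares passed 1% for 4 genes (Cox4i1, Cox5b, Atp5po and Uqcrb). None of the 6 isoform genes had such a copy.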

How the data were processed

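Per the labels, RNA-seq libraries of 15 mouse hearts (total RNA) and 6 fibroblast cultures (poly(A) RNA, a modified Smart-seq2 protocol) were made. The authors deposited 1 table of raw counts per gene for each library, and these counts were used as deposited. Per the submitters' processing notes STAR, HTSeq and the build mm10 were used; their versions, the strand setting and the treatment of reads with several matches were not given in the sources used here. A further table was not used, as its 6 sample columns could not be matched to the labels. Each table lists 53801 identifiers, of which 53706 matched GENCODE M21 (mouse release 21, GRCm38), and none that names no gene.

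Hearts and fibroblasts were fitted apart with edgeR 4.0.16 (R 4.3.3): filterByExpr, TMM, a coefficient per group, the quasi-likelihood test, and Benjamini-Hochberg adjustment over all genes tested, with a threshold of 0.05. SE is the log2 fold change over the square root of F. The steps were tested on simulated counts. Isoform ratios were tested with exact two-sided permutation (scipy 1.17.1). Lengths join the exons of GENCODE M21, and promoters are from RefSeq. Near-identical copies share at least 97% over at least 150 bases. Alternatives were other scalings, filters, DESeq2 1.42.0, limma-voom (limma 3.58.1), thinning of the fibroblast libraries, a replicate block, a marker covariate and leaving out each library.

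The 32 genes and the other lists were chosen with earlier results of these data known. The rule for named genes gives values in every library for the 6 isoform genes and 9 core subunits, and for each comparison the members with the largest and smallest change, those against the majority where these are 8 or fewer, and from other lists the 2 called genes of smallest p in each direction.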

Additional observations from a re-analysis of the deposited data

Results flagged for a closer look

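The 32 genes and the 3 isoform ratios were each looked at in MI+FAPI, FapKO and MI hearts. Among these 105 groups of 4 hearts, 4 had a library far from the other 3, or 3.81%, where chance gives about 1 in 20. MI replicate 3 was the highest of its group at 2034 CPM of Cox6a2, against 856 to 923 CPM in the other MI hearts. It was also the highest for Cox7a1, at 1093 CPM against 555 to 612 CPM, and for Cox8b, at 1029 CPM against 489 to 501 CPM. These are the muscle forms of complex IV subunits, and in the same heart the cardiomyocyte markers summed to 40520 CPM, against 13419 to 20262 CPM in the other MI hearts. FapKO replicate 3 had 516 CPM of Sdhc, the membrane anchor of complex II, against 437 to 447 CPM in the other FapKO hearts.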

How the results depend on the processing

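With total-count scaling the median of all genes moved to 1.23 in MI against sham hearts, -0.44 and -0.63 in MI+FAPI and FapKO against MI hearts, 0.77 and 0.59 in MI+FAPI and FapKO against sham hearts, 0.16 in MI+FAPI against FapKO hearts and -0.41 in co-culture. The median of the 32 genes moved to -1.82, 0.93, 1.27, -0.90, -0.52, -0.33 and 0.06 in the same comparisons. Higher genes among all called moved, in the same order of comparisons, to 86.1% (53.7% with TMM), 14.6% (60.1%), 16.6% (49.1%), 86.8% (52.4%), 91.7% (48.7%), 67.9% (53.5%) and 32.7% (50.7%). Of the 32 genes, 1 (Cox6a1) was then called higher in MI than in sham hearts and 1 lower in each of MI+FAPI and FapKO against MI hearts. Another 3 calls were lower in MI+FAPI than in FapKO hearts and 5 higher in co-culture. Over all genes the same calls numbered, in this order, 12663, 8485, 10455 and 745 of 17064, and 2506 of 12293. Cox6a1 reversed to 0.52, -0.36, -0.32, 0.17 and 0.20 in the first 5 comparisons, and Cox8a to 0.0881 in FapKO against sham hearts. In co-culture 24 of the 32 genes kept their sign. Among the named genes Uqcrfs1 reversed to -0.22, Cyc1 to -0.0234, Cox7a2 to -0.0736 and Atp5po to -0.14. The causes were not tested. The marker covariate left 11 genes lower in MI than in sham hearts, 0 higher in MI+FAPI and 0 in FapKO against MI hearts, and 2 lower in MI+FAPI than in FapKO hearts. Over all genes it left 1576 of 11783, 32 of 5081, 200 of 8700 and 6119 of 9517 calls in MI against sham, MI+FAPI and FapKO against MI, and MI+FAPI against sham hearts, with 3.12% and 15.5% of calls higher in the middle pair. Under the covariate 24 of the 32 genes kept their sign in MI+FAPI against MI hearts and 30 in FapKO against MI hearts. In MI+FAPI against MI hearts Uqcrb (-0.15), Cox4i1 (-0.15), Cox6a1 (-0.10), Cox8a (-0.10), Uqcr10 (-0.0968), Atp5po (-0.0942), Atp5f1b (-0.0647) and Uqcrc1 (-0.0304) reversed. Uqcrb (-0.15) and Atp5f1b (-0.0641) reversed in FapKO against MI hearts. Cox6b2 (-1.01), outside the 32, reversed in MI against sham hearts. The 1 gene lower in MI+FAPI than in FapKO hearts became 2 with no filter, 4 with DESeq2 and 2 with those groups alone. Over all genes the lower calls went from 1044 of 17064 to 1196 of 34098, 1346 of 17064 and 1023 of 15906. Sdhd in co-culture, near 0, turned to 0.0046 with RLE size factors and 0.0044 with DESeq2.

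Leaving out each library gave 1 to 12 genes lower in MI+FAPI than in FapKO hearts (12 without MI+FAPI replicate 4), 28 to 31 lower in FapKO than in sham hearts, 30 to 31 higher in MI+FAPI than in MI hearts, and in co-culture 14 to 18 higher and 2 to 4 lower (4 without lone replicate 2). Over all genes the same heart calls numbered, in this order, 494 to 1370, 2462 to 3472 and 2264 to 3299 of 16827 to 17510 tested. Those in co-culture numbered 3306 to 3911 higher and 3009 to 3897 lower of 11766 to 13256 tested. Sdhd then ranged from -0.0809 to 0.0075 (0.002 without co-culture replicate 1, 0.0038 and 0.0075 without lone replicates 1 and 3) and Uqcrfs1 from -0.0008 to 0.2084. Over all genes, calls fell to 3359 in MI+FAPI against MI hearts without MI+FAPI replicate 4. In MI+FAPI against FapKO hearts, with 2247 in all, they fell to 1125 to 1430 without replicate 1 or 3 of either group. There they rose to 2920 without MI+FAPI replicate 4. Total-count scaling gave 9933 calls in MI+FAPI against MI hearts. With a replicate block the counts were 32, 31, 31, 32, 31 and 1 in the 6 heart comparisons and 17 higher and 2 lower in co-culture. Over all genes the same calls numbered 5407, 2992, 4277, 4445, 3404 and 929 of 17064, and 3529 and 3333 of 12293. Whether the numbers pair samples cannot be told from correlations of same-numbered libraries. In no comparison did every such pair correlate above 0.1 (the lowest correlation of a comparison was at most 0.078). The median was 0.204 for MI and FapKO hearts (-0.07 for other pairs) and 0.103 for MI and sham hearts (-0.047). In the other comparisons the medians of same-numbered pairs ran from -0.086 to 0.076. The other 463 counts and ratios kept within 1.5 times or their side, among them counts with no gene called in either fit. For the isoform ratios this speaks only of direction, as no setting allowed an adjusted p under 0.05. Of the changes of named genes 2668 kept direction and side, 138 lost the threshold, 10 gained it and 23 reversed.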

Other observations

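Other cytochrome oxidase genes, outside the 32, gave a mixed picture. Ndufa4, a subunit of complex IV, stood at 2341, 3323, 2445 and 3705 CPM in MI+FAPI hearts, 5063, 3962, 4744 and 4025 CPM in FapKO hearts, 995, 810.0, 1576 and 1045 CPM in MI hearts and 9254, 9362 and 8744 CPM in sham hearts, and changed by -3.04 ± 0.23 in MI against sham hearts (log2, SE, edgeR adjusted p = 1.11e-08). Its relative Ndufa4l2, known as a hypoxia-induced gene, did not pass there but was 9.16-fold higher in co-cultured than in lone fibroblasts, at 68.4, 69.3 and 72.6 CPM against 8.67, 8.44 and 5.91 CPM (3.20 ± 0.17, edgeR adjusted p = 1.64e-06). Cox4i2, an alternative form of the Cox4 subunit found in lung, changed by -1.78 ± 0.15 in MI against sham hearts (edgeR adjusted p = 4.27e-08), by 1.15 ± 0.14 in FapKO against MI hearts and by -0.58 ± 0.14 in MI+FAPI against FapKO hearts (adjusted p = 0.0142). Cox6b2, a form known from testis, was higher in MI than in sham hearts (0.53 ± 0.20, adjusted p = 0.0252 by edgeR). Cox7a2l, which joins complexes III and IV, rose in MI+FAPI against MI hearts (0.57 ± 0.12) and in co-cultured against lone fibroblasts (0.58 ± 0.10). Cox7b2 was called higher in MI+FAPI than in FapKO hearts at 0.172, 0.402, 0.239 and 0.491 CPM in MI+FAPI and 0.0859, 0.0341, 0 and 0.117 CPM in FapKO hearts. In fibroblasts the mitochondrially encoded mt-Co1 was higher in co-culture (1.89 ± 0.13, edgeR adjusted p = 6.94e-06), as were the assembly factors Pet100 (1.63 ± 0.11) and Cox16 (1.39 ± 0.11), whereas Ttc19, an assembly factor of complex III, was lower (-1.20 ± 0.32, adjusted p = 0.00969). Coa5, an assembly factor of complex IV, was lower too (-0.65 ± 0.17), as were the regulators Gabpa (-0.64 ± 0.16) and Tfam (-0.70 ± 0.20). Of the other ATP synthase subunits Atp5mc2 (1.70 ± 0.15) and Atp5mg (1.36 ± 0.12) were higher and Atp5pb lower (-0.43 ± 0.12).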
